A study of Danio rerio with 2 samples.

Results

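The transparent lens of the larval eye is built from fiber cells packed with crystallins, and the genes of these proteins are described here in whole zebrafish larvae exposed to benzo[a]pyrene (BaP). Of 22849 genes in the deposited table, 53 were taken by symbol: the alpha, beta and gamma crystallin genes and a set of genes for other proteins of lens fiber cells. They comprised 1 alpha, 12 beta, 30 gamma and 10 fiber gene models on 18 chromosomes, and 50 of the 53 reached a sum of 10 over both libraries and entered the comparison. The larvae were wild-type fish of the strain AB, 6 days post fertilization (dpf) old. One group had been kept in 1 µM BaP and the other in 0.1% DMSO, the solvent control, between 3 and 6 dpf. Each group was 1 library, made with a stranded mRNA kit out of 200 ng of total RNA from 4 pooled biological replicates, so that no spread between replicates exists and no test of the treatment can be made.

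Crystallins fill the lens fiber cell at very high concentration and give the lens its refractive power. Alpha crystallins are small heat shock proteins that hold other proteins in solution. Beta and gamma crystallins share a fold and are structural. Fish lenses are rich in gamma M crystallins, which carry many methionines and pack densely, as a lens working in water requires. BaP is a combustion product that activates the aryl hydrocarbon receptor, and cyp1a, the classic target of that receptor, reached 17859 normalized reads in the BaP library, against 650 in the DMSO library.

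The values are normalized read counts that the authors rounded to whole numbers. They summed to 11968060 in the BaP library and 13443263 in the DMSO library, which corresponded to about 21996000 and 19804000 reads as estimated from the pattern of low values. They are not divided by transcript length, so levels are compared between libraries and not between genes. Ratios are BaP over DMSO, and the brackets after them hold approximate 95% intervals for counting error. Such an interval says nothing about differences between batches of larvae. In whole larvae, fewer lens cells and less RNA per lens cell cannot be told apart.

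In sum the lens genes differed little between the libraries, but their classes leaned in different directions. The 53 genes summed to 18918 in the BaP library and 20368 in the DMSO library, a ratio of 0.929 (0.914 to 0.944), and held 0.158% and 0.152% of all values. The beta crystallins and the fiber genes were close to equality in sum. The 30 gamma models together summed to 13084 in the BaP library and 14620 in the DMSO library, a ratio of 0.895 (0.878 to 0.912). Of the 29 gamma models that entered, 22 had a ratio below 1 and 7 above, beside 12265 below and 9039 above over all 21764 genes. Of the 22, 19 were gamma M2d copies, which may share reads. Within the gamma class, the tandem gamma M2d crystallins were lower in the BaP library, with a ratio of 0.843 of the summed values. The gamma N and gamma MX crystallins were higher, with a ratio of 1.36. The plan for summed levels named gamma as a single class, without this split by symbol. A ratio of at least 2 in either direction was found for 3 of the 50 genes, 2 higher and 1 lower, while 8.11% of all 21764 genes with a sum of 10 passed that fold, 3.75% higher and 4.36% lower. The 3 genes had values of at most 11 in either library. The median log2 ratio of the 50 was -0.09, beside -0.06 over all genes.

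**Figure D1:**
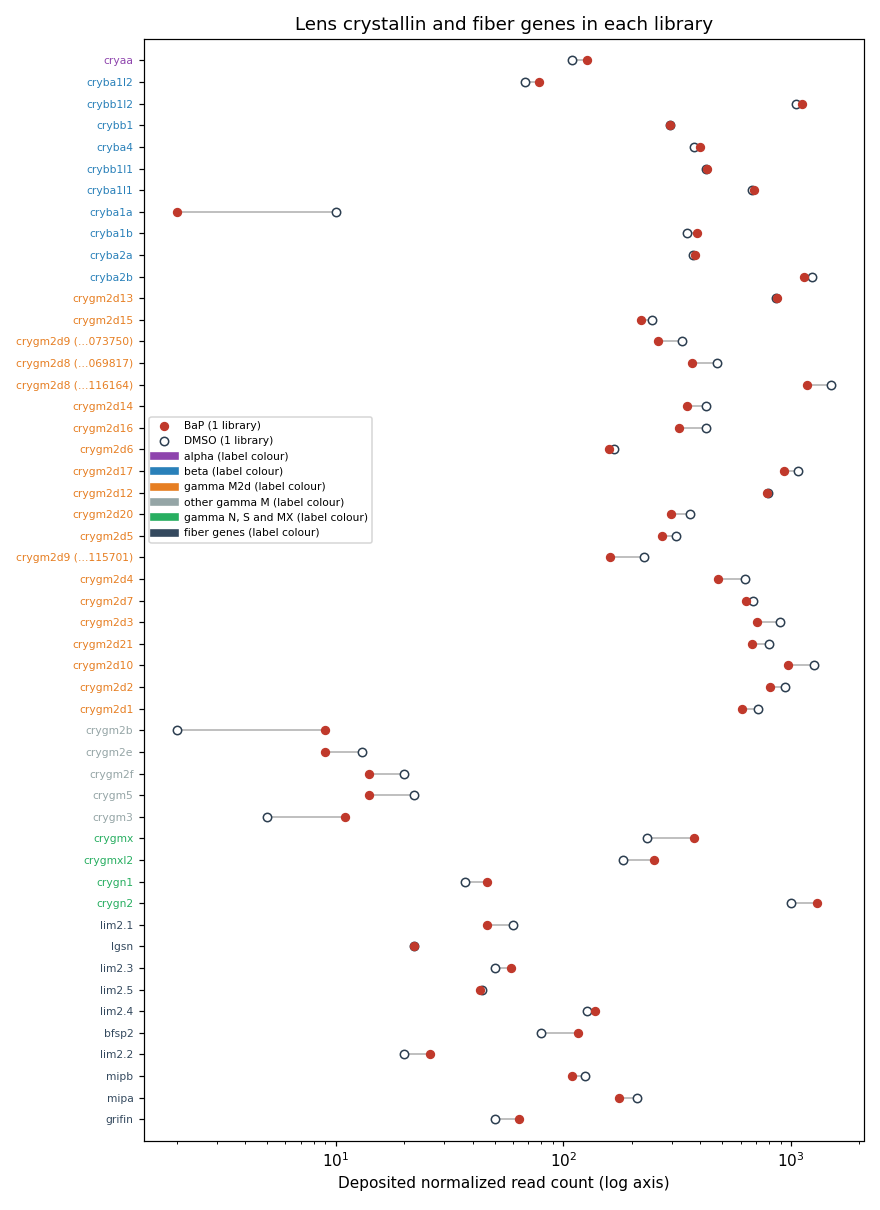
Normalized read count (log axis) of the 50 lens genes with a sum of 10 or more in the BaP library (filled red points) and in the DMSO library (open points), with gene labels coloured by class. Most pairs of points lie close together, and the widest gaps belong to cryba1a and crygm2b, whose values were 10 or less.

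The single alpha crystallin of the set, cryaa (ENSDARG00000053502, chromosome 1, 29096881 to 29100923), encodes the lens chaperone alpha A crystallin. It had 127 normalized reads in the BaP library and 109 in the DMSO library, a ratio of 1.17 (0.941 to 1.45). Its interval held 1. With both libraries scaled to the same total the ratio was 1.31 (1.06 to 1.62), so whether equality lay inside the interval depended on the scaling.

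The beta crystallins, which assemble into dimers and larger oligomers in the fiber cell, were nearly level in the deposited values. Summed over the 12 models their values were 4910 in the BaP library and 4851 in the DMSO library, a ratio of 1.01 (0.98 to 1.04). Of the 10 that entered, 7 had a ratio above 1, 2 a ratio below 1 and 1 was equal, with a median log2 ratio of 0.03. Over all 21764 genes 9039 had a ratio above 1 and 12265 below. Of the 10 beta genes, 9 lay within 1.25-fold of equality. Over all genes with a sum of 10 that share was 58.8%, and over those with a sum of 200 or more it was 66.7%. Over the 50 lens genes together it was 58%, near that of all genes. For gamma M2d and for the fiber genes it was 60% each, and for gamma N, S and MX 25%. These shares also depend on how many reads the genes had.

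The gene cryba2b (ENSDARG00000041925, chromosome 9, 11554089 to 11560432) had 1136 normalized reads in the BaP library and 1236 in the DMSO library. Its ratio of 0.919 (0.862 to 0.98) was the one below 1 among the beta genes with more than 10 normalized reads in each library. Its direction turned with equal totals, at 1.03 (0.968 to 1.1), and with the median of ratios the interval held 1 (0.958, 0.898 to 1.02). The gene crybb1l2 had 1113 normalized reads in the BaP library and 1052 in the DMSO library (ratio 1.06, 0.989 to 1.13). The values of cryba1l1 were 687 and 673, those of crybb1l1 429 and 422, and those of cryba4 400 and 373, in the BaP and the DMSO library in that order. The gene crybb1 had 294 in both. As deposited, none of these intervals except that of cryba2b left out 1. With the median of ratios 2 of the 10 beta intervals lay above 1, those of crybb1l2 (1.1, 1.03 to 1.18) and cryba1b (1.16, 1.03 to 1.3). With equal totals 6 of the 10 did. Of the less abundant beta genes, cryba1b had 386 and 348 normalized reads in the BaP and the DMSO library, cryba2a 379 and 371, and cryba1l2 78 and 68. The whole span of cryba2a, 3430 bases, lies under tmem198b on the opposite strand, so its reads may be mixed with those of tmem198b.

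Several beta crystallin genes lie side by side. The genes crybb1l1 and cryba1l1 on chromosome 14 are transcribed away from each other across a gap of 2.58 kb, and their ratios were 1.02 and 1.02. The genes cryba1l2 and crybb1l2 on chromosome 1, 4.95 kb apart and also divergent, had ratios of 1.15 and 1.06. The third such pair, crybb1 and cryba4 on chromosome 10 at a distance of 14.6 kb, had ratios of 1.00 and 1.07. In each pair the interval of one gene overlapped that of the other.

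The gene cryba1a (ENSDARG00000041141) stood outside the class, with 2 normalized reads in the BaP library and 10 in the DMSO library, a ratio of 0.2 (0.0243 to 0.796). Its model overlaps unc119a by 1008 bases on the opposite strand, and the sources used here do not say if reads were counted by strand. It met the minimum sum of 10 only through the library in which it was high, so a difference was built into its entry. Of the models that did not enter, crybb3, with 6 normalized reads in the BaP library and 3 in the DMSO library, fell just short, and crybb2 had 0 and 1. The model nearest to the limit on the other side was crygm2b, with 9 and 2.

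The gamma M2d crystallins form a tandem array and were lower in the BaP library almost throughout. The 20 models summed to 11051 in the BaP library and 13105 in the DMSO library, a ratio of 0.843 (0.826 to 0.86). Of the 20, 19 had a ratio below 1 and 1 above, and in 15 the whole interval lay below 1. That number was 14 with the median of ratios and 7 with equal totals, under which 2 intervals lay above 1. Over all 21764 genes 12265 had a ratio below 1 as deposited, and 26.2% had an interval below 1. These shares were not counted under the other scalings. The median log2 ratio was -0.26 and the range ran from -0.49 to 0.02. The 9340 genes of the table whose sums fell in the range of the M2d models, 324 to 2671, had a median of -0.05 and quartiles of -0.23 and 0.16. As deposited, 3065 of these 9340 genes had an interval below 1 and 2274 an interval above 1. The M2d median thus lay a little below the lower quartile of genes of like abundance, and inside the quartiles of all 21764 genes, -0.31 and 0.19. The copies are close in sequence and may share reads, and the sources used here do not say how reads that fit several copies were counted. The 20 ratios are therefore not 20 separate observations, and the sum is the safer value.

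The M2d member with the largest values was the crygm2d8 model ENSDARG00000116164 (chromosome 9, 22134731 to 22135576, minus strand). It had 1175 normalized reads in the BaP library and 1496 in the DMSO library, a ratio of 0.785 (0.739 to 0.834). The symbols are those of the deposited table, which gives crygm2d8 also to ENSDARG00000069817, a model that the name table calls crygm2d17. It had 369 and 472 (ratio 0.782, 0.701 to 0.872). Models are therefore told apart by their gene ID.

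Next in summed value came crygm2d10, with 974 normalized reads in the BaP library and 1268 in the DMSO library (ratio 0.768, 0.719 to 0.821). The model listed as crygm2d17 (ENSDARG00000109861, crygm2d19 in the name table) had 934 and 1078 (ratio 0.866, 0.808 to 0.929), and crygm2d2 had 810 and 939 (ratio 0.863, 0.8 to 0.93). As deposited, the interval of each of these lay below 1. With equal totals that was so for crygm2d10 (0.863, 0.807 to 0.922), while those of ENSDARG00000109861 (0.973, 0.908 to 1.04) and crygm2d2 (0.969, 0.899 to 1.04) held 1. The exceptions among abundant copies were crygm2d13, with 866 normalized reads in the BaP library and 856 in the DMSO library (ratio 1.01, 0.938 to 1.09), and crygm2d12, with 786 and 796 (ratio 0.987, 0.912 to 1.07).

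The copies farthest from equality were the crygm2d9 model ENSDARG00000115701, with 161 normalized reads in the BaP library and 226 in the DMSO library (ratio 0.712, 0.604 to 0.84), and crygm2d4, with 477 and 626 (ratio 0.762, 0.693 to 0.838). The other model listed as crygm2d9, ENSDARG00000073750, is crygm2d18 in the name table and had 260 and 331 (ratio 0.785, 0.689 to 0.896). The interval of crygm2d13 did not overlap that of crygm2d4, crygm2d10 or the larger crygm2d8 model. These copies were picked by their values and may share reads, so whether the copies differ from each other was not tested. The models crygm2d14 and crygm2d16 overlap by 1044 bases on the same strand. They had 348 and 322 normalized reads in the BaP library and the identical value of 422 in the DMSO library, and their reads may not be separable.

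The remaining M2d copies followed the same pattern at lower or middle abundance. The gene crygm2d3 had 707 normalized reads in the BaP library and 891 in the DMSO library, crygm2d21 had 672 and 799, and crygm2d1 had 609 and 717, each with an interval below 1 as deposited. So had crygm2d20, with 298 and 360, and crygm2d5, with 272 and 311. For crygm2d7, with 634 and 684, crygm2d15, with 219 and 245, and crygm2d6, with 158 and 166, the interval held 1.

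The array spans 293.3 kb of chromosome 9, between 22068412 and 22361681 in the table's coordinates, and holds 25 of the 53 lens models, 24 of them on the minus strand. The submitters' processing notes name danRer11 and GRCz11 as builds. The table lists 1 further model within the span, CR391987.1 (ENSDARG00000069827), whose protein entries read gamma M2d11 and gamma M2d8. It was not taken by symbol and had 657 normalized reads in the BaP library and 817 in the DMSO library, a ratio of 0.804 (0.741 to 0.873), which is inside the range of the M2d copies.

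**Figure D2:**
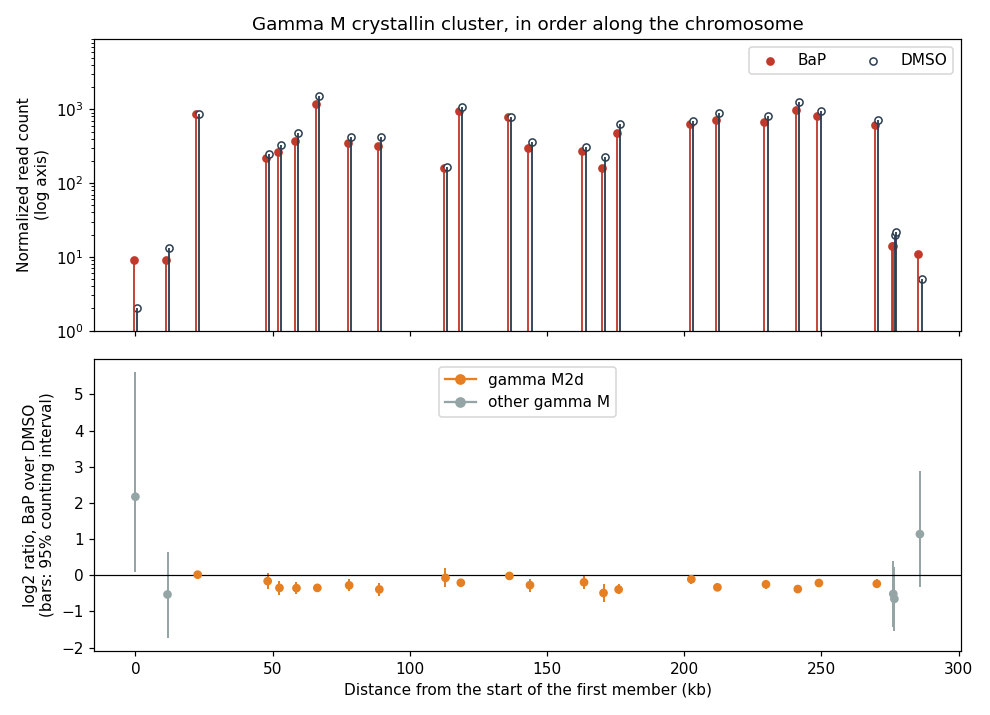
The 25 gamma M crystallin models of the chromosome 9 array against the distance from the start of the first (kb): above, normalized read counts (log axis) in the BaP library (red) and the DMSO library (open); below, log2 ratio with its 95% counting interval. The M2d copies in the middle lie slightly below 0 along the array, and the models at its ends have values of 22 or less and wide intervals.

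At both ends of the array lie gamma M genes other than M2d with few reads. The 5 summed to 57 normalized reads in the BaP library and 62 in the DMSO library, a ratio of 0.919 (0.662 to 1.28). At one end crygm2b had 9 normalized reads in the BaP library and 2 in the DMSO library (ratio 4.5, 1.06 to 48.7), and at the other crygm3 had 11 and 5 (ratio 2.2, 0.803 to 7.32). These were the higher genes of the 3 past 2-fold. Most of the sum with which crygm2b entered came from the library in which it was high, and the interval of crygm3 held 1. The values of crygm2e were 9 in the BaP library and 13 in the DMSO library. Those of crygm2f were 14 and 20, and those of crygm5 were 14 and 22. The models crygm2f and crygm5 overlap by 454 bases on the same strand.

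The gamma N and gamma MX crystallins lie outside the array and were higher in the BaP library. Gamma N crystallins have features of both the beta and the gamma family. The 4 models that entered all had a ratio above 1, as had 9039 of all 21764 genes, and for 3 of the 4 the whole interval lay above 1. Over all genes 18.1% had such an interval, and of the 13343 genes with a sum of 200 or more 3138 had one. With crygs2, the gamma S gene of the set, listed at 0 in both libraries, the class summed to 1976 normalized reads in the BaP library and 1453 in the DMSO library (ratio 1.36, 1.29 to 1.44). A count of 0 allows up to 3 reads per library, or 1.63 normalized reads in the BaP library and 2.04 in the DMSO library.

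The largest values of the class were those of crygn2 (ENSDARG00000030411, chromosome 24, 41305391 to 41312459), with 1306 normalized reads in the BaP library and 999 in the DMSO library, a ratio of 1.31 (1.22 to 1.4). The neighbours crygmx and crygmxl2 lie 0.997 kb apart on chromosome 12, on the same strand. The gene crygmx (ENSDARG00000053862, 30838167 to 30841679) had 375 and 234 normalized reads (ratio 1.6, 1.4 to 1.84). The gene crygmxl2 (ENSDARG00000074001, 30842677 to 30846055) had 249 and 183 (ratio 1.36, 1.16 to 1.6). Among lens genes with a sum of at least 200, crygmx was the one farthest above equality. The remaining member, crygn1, had 46 normalized reads in the BaP library and 37 in the DMSO library (ratio 1.24, 0.854 to 1.83), and BX908782.3 overlaps it on the opposite strand.

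**Figure D3:**
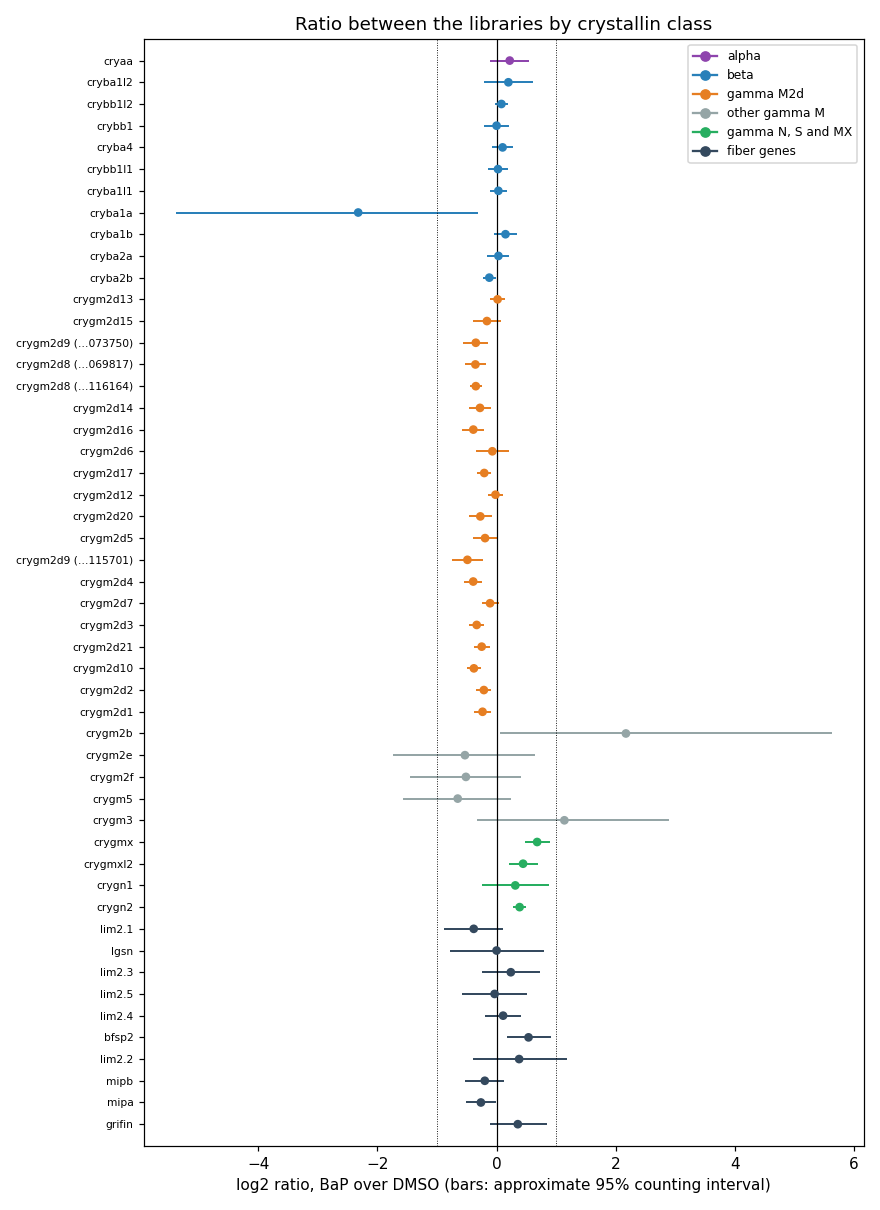
Log2 ratio of the normalized read counts, BaP over DMSO, for each of the 50 lens genes with its approximate 95% counting interval, coloured by class; dotted lines mark 2-fold. The gamma M2d copies lie between -0.49 and 0.02, the gamma N and MX genes between 0.31 and 0.68, and intervals past 2-fold belong to genes with few reads.

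Genes for other proteins of the fiber cell were level in sum and mixed one by one. The 10 genes summed to 797 normalized reads in the BaP library and 788 in the DMSO library, a ratio of 1.01 (0.932 to 1.1). Of their ratios 5 were above 1, 4 below and 1 equal, beside 9039 above and 12265 below over all 21764 genes. The gene bfsp2 (ENSDARG00000011998, chromosome 2, 32761130 to 32769759) encodes phakinin, an intermediate filament protein of the beaded filament of fiber cells. It had 116 normalized reads in the BaP library and 80 in the DMSO library (ratio 1.45, 1.14 to 1.85). As deposited, it was the fiber gene whose interval lay above 1.

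The genes mipa and mipb encode aquaporin 0, the water channel of fiber cell membranes. The values of mipa (ENSDARG00000037285, chromosome 23, 27068225 to 27072774) were 175 normalized reads in the BaP library and 210 in the DMSO library (ratio 0.833, 0.707 to 0.982). The values of mipb were 109 and 125 (ratio 0.872, 0.704 to 1.08). Both copies were on the lower side in the BaP library. The interval of mipa held 1 with equal totals (0.936, 0.794 to 1.1) and with the median of ratios (0.869, 0.737 to 1.02).

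The lim2 genes encode a family of fiber cell membrane proteins, of which mammalian Lim2 is a cell junction protein. Their values in the BaP and the DMSO library were 137 and 127 for lim2.4, 59 and 50 for lim2.3, and 46 and 60 for lim2.1, and 43 and 44 for lim2.5 and 26 and 20 for lim2.2. Every one of these 5 intervals held 1. The gene grifin, for a galectin-related lens protein, had 64 normalized reads in the BaP library and 50 in the DMSO library (ratio 1.28, 0.932 to 1.77). With equal totals its interval, like that of bfsp2, lay above 1 (1.44, 1.05 to 1.99). The gene lgsn, for lengsin, a lens protein related to glutamine synthetase, had 22 in both.

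The contrast between classes did not depend on how the libraries were scaled to each other, since it can be formed within each library. Of the summed lens values, the M2d copies held 58.4% (57.9 to 58.9) in the BaP library and 64.3% (63.8 to 64.9) in the DMSO library, with exact binomial intervals for counting error. The beta class held 25.95% (25.5 to 26.4) in the BaP library and 23.8% (23.3 to 24.3) in the DMSO library. The gamma N, S and MX genes held 10.4% (10.1 to 10.8) and 7.13% (6.85 to 7.43). The whole gamma class, the one named in the plan, held 69.2% (68.7 to 69.6) in the BaP library and 71.8% (71.3 to 72.3) in the DMSO library. The split of this class used here was not planned. The M2d ratio divided by the beta ratio was 0.833 (0.803 to 0.864), and the gamma N, S and MX ratio divided by the beta ratio was 1.34 (1.26 to 1.43). For the fiber genes over the beta genes this quotient was 0.999 (0.92 to 1.09), and for cryaa over the beta genes 1.15 (0.939 to 1.41). These intervals cover counting error in 1 library each, and a like difference between 2 DMSO libraries was not measured.

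Whether a class was called higher or lower did depend in part on the scaling. Scaling both libraries to the same total moves each log2 ratio by 0.17. Scaling by the median of ratios, over genes with a value of at least 10 in both libraries, moves it by 0.06. The M2d sum stayed below equality under both, at ratios of 0.947 and 0.879, and the gamma N, S and MX sum stayed above, at 1.53 and 1.42. The sum of all lens genes was 1.04 with equal totals and 0.968 with the median of ratios, so that its direction turned with the first of them. With equal totals 6 of the 10 beta intervals lay above 1, against 0 as deposited, and the beta sum was 1.14. For gamma N, S and MX 3 of the 4 intervals lay above 1 under each scaling. Both other scalings raise the ratio of every gene, and the share of all genes with such an interval was counted only as deposited.

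**Figure D4:**
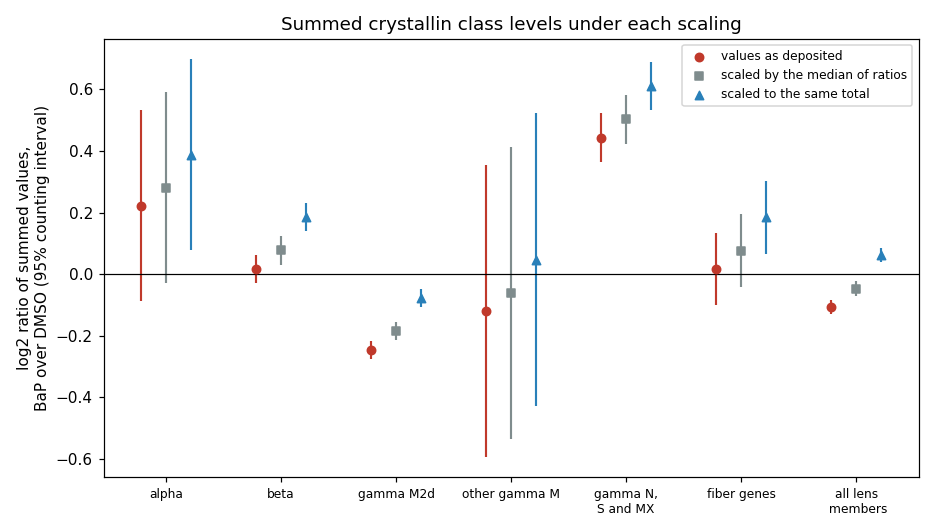
Log2 ratio of the summed values of each class, BaP over DMSO, with its 95% counting interval, for the values as deposited (circles), scaled by the median of ratios (squares) and scaled to the same total (triangles). The gamma M2d sum lies below 0 and the gamma N, S and MX sum above 0 under the 3 scalings, while the sum of all lens genes crosses 0.

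Of 13 listed lens transcription regulators, 10 were found in the table by symbol, and 0 of the 10 differed by 2-fold in either direction (median log2 ratio -0.04, from -0.31 to 0.21). With 8.11% of all genes past that fold, a count of 0 in 10 is near the background. The listed regulators foxe3, hsf4 and maf were not found by symbol, so nothing can be said of their levels. Of the 10 intervals 3 lay below 1 and 1 above, which is near the 26.2% and 18.1% of all genes. The eye field gene pax6a, a regulator of crystallin genes, had 999 normalized reads in the BaP library and 1049 in the DMSO library, and its copy pax6b had 711 and 720. The lens homeobox gene pitx3 had 123 and 152 (ratio 0.809, 0.665 to 0.985), and prox1a, needed in fiber differentiation in mice, had 450 and 521 (ratio 0.864, 0.78 to 0.956). Of the large Maf family, which binds crystallin promoters, mafaa had 511 and 441 (ratio 1.16, 1.04 to 1.29) and mafba 560 and 627 (ratio 0.893, 0.815 to 0.979). Most of these genes are also active in brain or retina, so their values in whole larvae do not belong to the lens alone.

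Of 15 listed genes of lens junctions, fiber maturation and organelle loss, 11 were found, of which 1 was at least 2-fold higher and 0 lower (median log2 ratio 0.00), which is near the 3.75% and 4.36% of all genes. The one was epha2a, an Eph receptor gene expressed beyond the lens as well, with 321 normalized reads in the BaP library and 137 in the DMSO library (ratio 2.34, 1.98 to 2.78). Its copy epha2b had 331 and 438 (ratio 0.756, 0.674 to 0.848), and the cell cycle inhibitor gene cdkn1ca had 146 and 210 (ratio 0.695, 0.585 to 0.826). The lens connexin gene gja8a had 13 normalized reads in the BaP library and 11 in the DMSO library, and gja8b had 13 in both, too few to resolve a 1.5-fold difference. The listed genes gja3, gje1a, gje1b and plaat1 were not found by symbol. The gene dnase1l1l, for the nuclease that degrades fiber cell nuclei in fish, had 17 normalized reads in the BaP library and 24 in the DMSO library (ratio 0.708, 0.401 to 1.24).

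The rod and cone markers in sum were lower in the BaP library by more than any lens class. The markers of the retinal pigment epithelium were mostly lower, and those of Müller glia were mixed. Of 16 rod and cone markers, 16 had a ratio below 1, as had 12265 of all 21764 genes, and their sum was 29929 in the BaP library and 48198 in the DMSO library, a ratio of 0.621. The rod opsin gene rho had 7099 and 11530 normalized reads, and the green cone opsin gene opn1mw1 had 3170 and 6993. The lens ratio divided by the rod and cone ratio was 1.5 (1.47 to 1.52), a quotient that scaling cannot alter. That lens ratio pools classes whose summed ratios ran from 0.843 for gamma M2d, also lower, to 1.36 for gamma N, S and MX. Of 6 markers of the retinal pigment epithelium 5 had a ratio below 1 (median log2 ratio -0.55), and of 4 markers of Müller glia 2 (median 0.32), though some of both lists are active in skin pigment cells or in brain glia. The 8 fixed markers of lens fibers, themselves among the lens genes, were detected in both libraries, with 1306 normalized reads of crygn2 in the BaP library and 999 in the DMSO library, and 659 and 656 for the other 7 together.

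**Figure D5:**
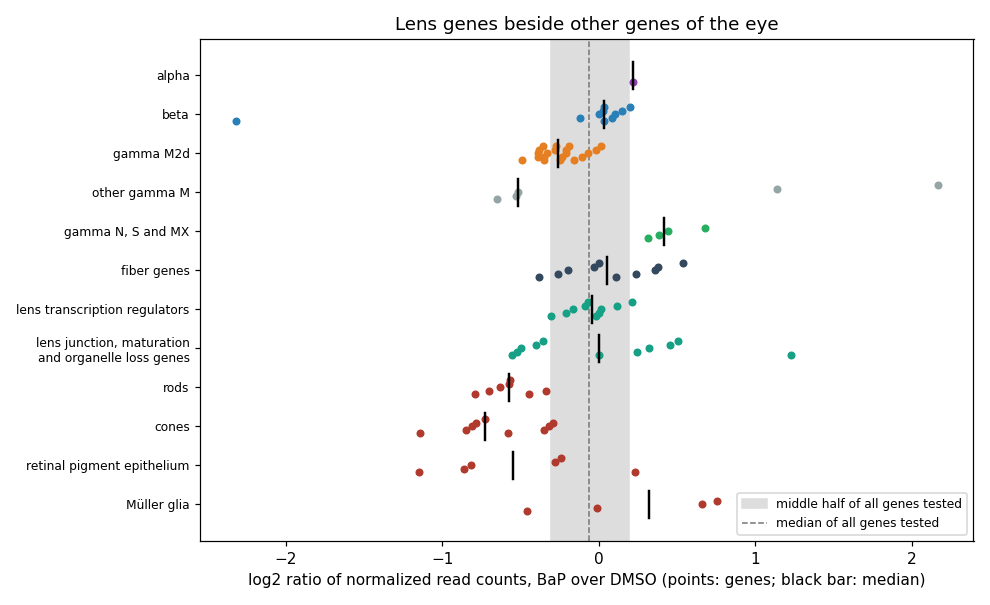
Log2 ratio, BaP over DMSO, of each gene in the 6 lens classes and in lists of lens regulators, lens maturation genes, rods, cones, retinal pigment epithelium and Müller glia; black bars are medians, and the grey band holds the middle 50% of all genes tested. The beta, gamma M2d and fiber medians lie inside the band. The gamma N, S and MX median and the single alpha gene lie to its right, and the median of the other gamma M genes lies to its left. The rod and cone points lie to the left of 0.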

How the data were processed

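The deposited values are a score per gene: normalized counts rounded by the authors to whole numbers, by a scaling that the sources used here do not give. Trimmomatic 0.38, STAR 2.6.1d and featureCounts 1.6.3 stand in the submitters' processing notes without a role or an order. Low values alternate in frequency, as happens when whole reads are multiplied by 1 factor and then rounded. That factor was estimated by maximum likelihood from values of 3 to 120 as 0.5441 for the BaP library and 0.6788 for the DMSO library, and reads were estimated by division. This presumes that the columns were scaled.

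Rows with a sum of 10 or more entered. A gene was counted when its ratio, BaP over DMSO, was at least 2 or at most 0.5, without a test. Intervals are Clopper-Pearson intervals at 95% on the estimated reads, widened for rounding. Those of quotients of ratios are normal approximations on the log scale. They cover counting error only, and reads carry no molecular identifiers. The code was tested on simulated data.

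Members were taken by symbol, and 1 row that the symbol patterns also take in is not reported here. Members and lists were chosen with earlier results of these data known. Every member that entered could be named, and those described in full have the largest sums or the ratios farthest from 1 in their class. Listed genes were matched by exact symbol. Symbols are those of the deposited table; a table that pairs Ensembl gene IDs with symbols names 13 of the 53 members otherwise, case aside. Sequences, and with them a planned search of promoters for motifs, were not used here. Alternatives were other filters, scalings, pseudocounts and folds, summed copies and, chosen after the data had been seen, leaving out overlapping models. Computations used Python 3.11.15, numpy 2.4.6, pandas 2.3.3, scipy 1.17.1 and matplotlib 3.10.9.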

Additional observations from a re-analysis of the deposited data

How the results depend on the processing

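No paired analysis was possible because each treatment has 1 library. The count of 3 lens genes past 2-fold became 0 with a minimum sum of 50 and 5 at 1.5-fold (3 higher, 2 lower), and lay between 2 and 4 under the other alternatives. The share of all genes past the fold was not counted under these alternatives, so these counts have no background beside them. The median log2 ratio of -0.09 became 0.077 with equal totals, 0.081 with the gamma M2d copies summed to 1 feature and 0.091 without them. The summed lens ratio of 0.929 became 1.04 with equal totals, 0.968 with the median of ratios and 1.01 without the gamma class. With equal totals the summed ratio was 1.14 for beta, 0.947 for gamma M2d, 1.53 for gamma N, S and MX, 1.31 for cryaa and 1.14 for fiber genes, and cryba2b turned to 1.03. With the median of ratios it was 1.05 for beta and 0.879 for gamma M2d. Of the 20 M2d models, 15 stayed below 1 with equal totals and 18 with the median of ratios, against 19 as deposited, and 7 in place of 15 had an interval below 1 with equal totals. All 16 rod and cone markers stayed below 1 under both. Of 200 values for single genes under scalings and pseudocounts, 19 left their counting interval, all of them with equal totals, and 0 genes past 2-fold turned direction. Genes under 30 normalized reads could not resolve a 1.5-fold difference at this depth.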

Other observations

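Alpha crystallins belong to the small heat shock protein family, whose other members are expressed in muscle and many other tissues. These genes were looked up after the values had been seen. Of 9 models named hspb with a number, 3 were at least 2-fold higher in the BaP library and 0 lower (median log2 ratio 0.68), beside 3.75% and 4.36% of all genes. The gene hspb6 had 409 normalized reads in the BaP library and 46 in the DMSO library, a ratio of 8.89 (6.85 to 11.7). The values of hspb11 were 963 and 274 (ratio 3.51, 3.15 to 3.94), and those of hspb9 were 63 and 16 (ratio 3.94, 2.43 to 6.73). The gene hspb7 had 88 and 118 (ratio 0.746, 0.592 to 0.938). The lens chaperone gene cryaa, at 127 and 109, was not among those that stood apart.

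Of 7 listed heat shock genes 5 were at least 2-fold higher in the BaP library and 0 lower, beside the same 3.75% and 4.36%. Of the 5, hsp70l, hsp70.1, hsp70.2 and hsp70.3 met the minimum sum only through the BaP library, so a rise was built into their entry. The count of 5 thus rests in part on the rule of entry. The values of hsp70.1 were 30 in the BaP library and 1 in the DMSO library. Those of hsp70.2 were 55 and 3, and those of hsp70.3 were 50 and 6. The inducible chaperone gene hsp70l had 75 normalized reads in the BaP library and 8 in the DMSO library (ratio 9.38, 4.91 to 20.6), and hsp90aa1.1 had 875 and 288 (ratio 3.04, 2.72 to 3.4). The gene of their regulator, hsf1, had 490 and 544.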
